A study of Mus musculus with 12 samples.

Results

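The uninduced cells that carry the pSliK34a vector (Sca-high NT) were set against uninfected Sca-high cells, across the whole transcriptome. The libraries were chosen by their group alone, which took 6 of the 12 RNA-seq libraries of the study, 3 of Sca-high NT and 3 of Sca-high cells, and no measured value entered this choice of libraries. The gene lists used below, by contrast, were chosen with earlier results of these data known. The other 6 libraries, 3 of Sca-low cells and 3 of doxycycline-treated Sca-high 34a cells, entered the estimate of the spread, and their levels are given in places. CommaDβ is an immortal line of normal mouse mammary epithelial cells that holds a population with much stem cell antigen-1 on its surface (Sca-high, described by the study as basal, stem and progenitor-like) and one with little (Sca-low, described as luminal and more differentiated), and all 4 groups were sorted from it by flow cytometry. Sca-high NT cells are Sca-high cells infected with a lentiviral vector that makes miR-34a when doxycycline is added, and here no doxycycline was given. Sca-high cells had neither vector nor drug. Sca-high 34a cells carry the same vector and received doxycycline for 24 h. The study used Sca-high NT as the baseline of the induced cells, so this comparison asks how far that baseline lay from the uninfected population.

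Carrying the vector, having been infected, any selection and further culture that went with infection, and the batch of the libraries all separate these groups together and cannot be told apart. No label says that the 3 libraries of a group are separate cultures, so that p-values set a difference against the scatter of 3 libraries per group alone, whose source may be technical. A genotype label names Sca-high NT libraries as expressing miR-34a and Sca-high 34a libraries as control, the reverse of the titles and source names, and groups follow the titles and source names. RNA was measured in bulk, so that fewer cells of a type and less RNA per cell cannot be told apart.

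The primary transcript of miR-34a was read first, as the check of the labels. miR-34a is a p53-induced microRNA that lowers its targets through base pairing of its seed with sites in their 3′ UTRs. The mature strand is shown with that of miR-34b, a member of the same family, and capitals mark the seed (bases 2 to 8), which both share. Sequences are from RefSeq, build GRCm38.p6, and lie at chr4:150068473-150068494 on the plus strand and chr9:51103610-51103632 on the minus strand.
miR-34a-5p: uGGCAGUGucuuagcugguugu
miR-34b-5p: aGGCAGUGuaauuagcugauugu
*Mir34a* had 3, 8 and 4 reads in Sca-high NT libraries, against 0, 0 and 3 reads in Sca-high libraries. The same gene had 744, 632 and 1137 reads in Sca-high 34a libraries and 0, 4 and 1 reads in Sca-low libraries. Without drug the vector-carrying cells held far fewer reads of this gene than with drug. Summed over libraries, 15 reads in Sca-high NT stood against 3 reads in Sca-high, a ratio of 4.74 per unit of depth with an exact 95% interval of 1.34 to 25.5 that covers counting error only. These libraries were made from total RNA by a kit for long transcripts, so the reads come from the precursor and do not measure the mature strand.

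Markers of the sort and of the basal lineage were present in both groups. *Ly6a*, the gene of Sca-1, had 11, 13.2 and 13.3 in Sca-high NT, against 10.2, 11 and 13.3 scaled RPKM in Sca-high, and the groups overlapped (0.12 ± 0.21, adjusted p = 0.651). Sca-low libraries averaged 1.31 scaled RPKM of it. The summed level of 7 basal markers was 1.45e+03 to 1.62e+03 scaled RPKM in Sca-high NT and 1.36e+03 to 1.61e+03 scaled RPKM in Sca-high, against 348 to 420 scaled RPKM in Sca-low libraries. It was carried by *Krt14* and *Krt5*, so it hardly shows changes of the other markers. Among these, *Acta2* was called lower (16.4, 20.7 and 17.1 in Sca-high NT, against 41.2, 38.6 and 43.9 scaled RPKM in Sca-high). A scaled RPKM is the deposited RPKM (reads scaled by gene length and library depth) divided by a scaling factor of the library, so it can be compared between genes per unit of length. *Krt14* was not called (987, 912 and 949.5 in Sca-high NT, against 819, 835 and 987 scaled RPKM in Sca-high, 0.11 ± 0.13, adjusted p = 0.481), nor was *Trp63*, the master regulator of basal epithelium (15.4, 16.2 and 15.5 in Sca-high NT, against 19.5, 19.3 and 16.8 scaled RPKM in Sca-high, -0.24 ± 0.16, adjusted p = 0.238). Leukocyte and endothelial markers lay near 0. Of 6 leukocyte markers the sum was 0.0514 to 0.0838 scaled RPKM in Sca-high NT and 0.0512 to 0.0869 scaled RPKM in Sca-high, with *Tyrobp* at 0 in all 6 libraries. Of 4 endothelial markers it was 0.0576 to 0.0909 scaled RPKM in Sca-high NT and 0.0753 to 0.0876 scaled RPKM in Sca-high, with *Emcn* at 0 in all 6 libraries. The sum of 7 fibroblast and adipocyte markers was 1.93 to 2.53 scaled RPKM in Sca-high NT and 0.811 to 1.28 scaled RPKM in Sca-high. It was carried by *Dcn*, the matrix proteoglycan decorin, which was called higher (1.41, 1.62 and 2.09 in Sca-high NT, against 0.185, 0.25 and 0.244 scaled RPKM in Sca-high, 2.46 ± 0.16, adjusted p = 3.64e-07), while *Adipoq*, *Plin1* and *Lum* did not exceed 0.00977 scaled RPKM in any of the 6 libraries.

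A gene was called when limma's adjusted p was below 0.01 and its log2 fold change was beyond 0.50 in either direction. Of 10586 genes tested, 2241 were called (21.2%). The filter asked for 1 RPKM in 3 or more of the 12 libraries. It thus let in genes that stay below 1 RPKM in the 6 libraries compared, through the other 6 libraries. Called higher in Sca-high NT were 1005 genes (9.49%) and called lower were 1236 genes (11.7%). Both shares are the background for each count of called list members below. Among the called genes, 376 rose by more than 1 and 390 fell by more than 1 on the log2 scale, and beyond 2 there were 132 rises and 57 falls, so the steepest changes were more often rises. The median of all tested genes was -0.02. For 6378 genes (60.2%) the libraries of the 2 groups did not overlap, and this is the background for each statement on overlap below. Fold changes are on the log2(scaled RPKM + 0.1) scale throughout, with the standard error after the ± sign and bare where a lone value stands in brackets after a gene, and understate changes of genes with low values.

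**Figure D1:**
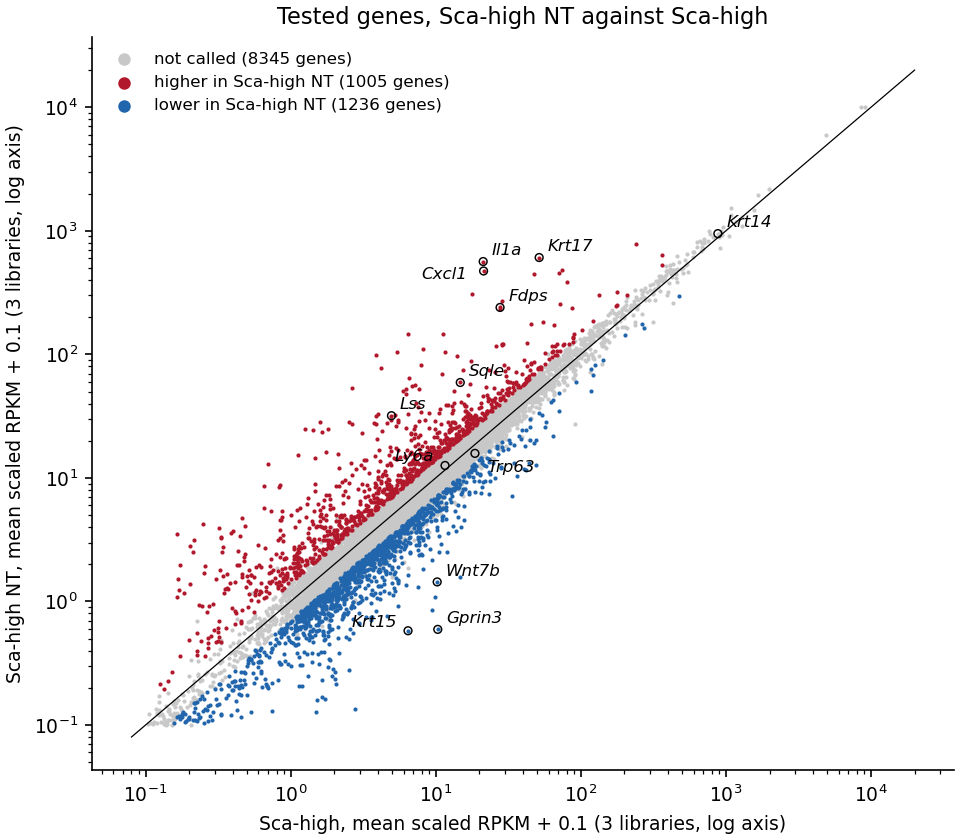
Mean level of each tested gene in Sca-high NT (vertical) against Sca-high (horizontal), in scaled RPKM + 0.1 on log axes with 3 libraries per group, with 1005 genes called higher in red, 1236 called lower in blue and 8345 not called in grey. *Il1a*, *Cxcl1*, *Krt17*, *Fdps*, *Sqle* and *Lss* stand above the diagonal line of equal levels, *Gprin3*, *Krt15* and *Wnt7b* stand below it, and *Krt14*, *Trp63* and *Ly6a* lie near it.

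Libraries are numbered by the columns of the table, 7, 8 and 9 for Sca-high NT and 1, 2 and 3 for Sca-high, and values are given in that order. The libraries were of like depth, with 31883642 to 39769078 reads recovered from the RPKM steps in each of the 6. Sca-high libraries differed more among themselves than Sca-high NT libraries did. The spread of a library's log2 values from the others of its group was 0.13 to 0.167 in Sca-high NT and 0.178 to 0.299 in Sca-high, and the largest belonged to library 3 of Sca-high. In that library the deviations followed gene length with a Spearman coefficient across 10575 genes of -0.515, against 0.312 and 0.386 in the other Sca-high libraries and -0.165 to 0.155 in Sca-high NT libraries. Called genes differed in length too, with a median of 2636 bases among those called higher and 4044.5 bases among those called lower, against 3257 bases among those not called. The part of gene length in single calls was measured by removing this trend, which left 1904 of the 2241 calls, and calls of genes named here that were lost in that way are given beside the gene.

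The largest rise was that of *Il1a*, which encodes interleukin-1 alpha, an alarmin that epithelial cells keep in store and that signals through the IL-1 receptor to NF-κB. It had 664, 427 and 601 in Sca-high NT, against 27.1, 21.7 and 14.6 scaled RPKM in Sca-high. All Sca-high NT libraries lay far above all Sca-high libraries, with library 8 the lowest of its group and library 3 the lowest of the other. The log2 fold change was 4.75 ± 0.28, adjusted p = 1.62e-07. With the IL-1 family counted as a whole, including receptors and adaptors, 24 genes were listed and 15 were tested. Of these, 6 were called higher (40.0%, against 9.49% of all tested genes) and 1 lower (6.67%, against 11.7%). Their median was 0.27, against -0.02 over all tested genes. The rises besides *Il1a* were those of *Il1rl1*, the receptor of IL-33 (119, 95 and 116 scaled RPKM in Sca-high NT and 9.11, 8.07 and 6.93 scaled RPKM in Sca-high), of *Il18rap*, a chain of the IL-18 receptor (1.64 ± 0.08, adjusted p = 4.55e-08), of *Il1rap*, the co-receptor shared by IL-1 family receptors (1.14 ± 0.07, adjusted p = 1.58e-07), and of the adaptors *Myd88* and *Tollip*. The calls of *Myd88* and *Tollip* were lost with a pseudocount of 1. That of *Myd88* was also lost with the gene length trend removed and without library 8, and that of *Tollip* with median of ratios scaling and without library 2, 7 or 9. The signalling receptor *Il1r1* itself was not called, with 1.13, 1.35 and 1.06 in Sca-high NT, against 1.18, 1.14 and 0.782 scaled RPKM in Sca-high. *Il18*, the ligand IL-18, fell, with 1.08, 1.07 and 1.12 in Sca-high NT, against 2.15, 2.74 and 2.71 scaled RPKM in Sca-high (-1.14 ± 0.14, adjusted p = 4.58e-05). Both *Il1b* and *Il33* lay below the filter of 1 RPKM in 3 libraries and were not tested. *Il1b* had 0.449, 0.336 and 0.424 scaled RPKM in Sca-high NT and 0.0258, 0.0378 and 0.0239 scaled RPKM in Sca-high. *Il33* had 0.686, 0.296 and 0.58 scaled RPKM in Sca-high NT and 0.0231, 0.0325 and 0.0537 scaled RPKM in Sca-high.

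The chemokines *Cxcl1*, *Cxcl2*, *Cxcl3* and *Cxcl5*, which attract neutrophils through the receptor CXCR2, all rose. *Cxcl1* had 538, 368 and 513 in Sca-high NT, against 23.8, 20.8 and 19.2 scaled RPKM in Sca-high (4.45 ± 0.19, adjusted p = 1.59e-08). *Cxcl5* had 325, 265 and 342 in Sca-high NT, against 18.6, 18 and 16.2 scaled RPKM in Sca-high (4.13 ± 0.19, adjusted p = 2.42e-08). *Cxcl3* reached 63.2, 43.6 and 53.9 scaled RPKM in Sca-high NT, against 2.88, 2.99 and 1.73 scaled RPKM in Sca-high, and *Cxcl2* reached 28.8, 20.2 and 24.7 scaled RPKM, against 1.52, 1.09 and 0.847 scaled RPKM. In each of these 4 genes the groups were well apart and library 8 was the lowest of Sca-high NT. *Cxcl1*, *Cxcl2* and *Cxcl3* are close copies of each other, and how reads that fit more than one of them were counted is not given in the sources used here, so their split is uncertain. Of 16 chemokine genes tested, 6 were called higher (37.5%, against 9.49% of all tested genes) and 2 lower (12.5%, near the 11.7% of all tested genes). The other rises were those of *Ccl2*, which attracts monocytes (37, 40.2 and 43.6 in Sca-high NT, against 6.24, 6.75 and 8.67 scaled RPKM in Sca-high), and of *Cxcl16* (5.24, 4.28 and 4.51 scaled RPKM in Sca-high NT and 1.64, 1.56 and 1.53 scaled RPKM in Sca-high). *Ccl20* was below the filter, with 0.752, 0.508 and 0.668 scaled RPKM in Sca-high NT and 0.00847, 0.0793 and 0.0626 scaled RPKM in Sca-high. The falls were those of *Cxcl12*, the ligand of CXCR4 (1.2, 1.67 and 1.27 in Sca-high NT, against 6.09, 5.39 and 4.62 scaled RPKM in Sca-high, -1.89 ± 0.14, adjusted p = 1.01e-06), and of *Cx3cl1*, fractalkine (-1.20 ± 0.12, adjusted p = 1.03e-05). The interferon-induced chemokine *Cxcl10* stayed at or below 0.0594 scaled RPKM in all 6 libraries.

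NF-κB targets and regulators formed the broadest inflammatory group, with 19 of 33 tested genes called higher (57.6%, against 9.49% of all tested genes) and 1 called lower, and a median of 0.75. Several secreted targets rose. *Csf3*, the granulocyte growth factor G-CSF, had 16.4, 9.02 and 13.1 in Sca-high NT, against 0.706, 0.589 and 0.485 scaled RPKM in Sca-high (4.19 ± 0.20, adjusted p = 3.42e-08). *Lif* had 39, 28.5 and 31.9 in Sca-high NT, against 5.09, 3.98 and 2.66 scaled RPKM in Sca-high (3.09 ± 0.19, adjusted p = 1.85e-07). *Csf2*, GM-CSF, had 1.3, 0.676 and 0.966 scaled RPKM in Sca-high NT and 0.0816, 0.0546 and 0.0615 scaled RPKM in Sca-high. *Lcn2* and *Saa3*, acute phase proteins of epithelia, rose by 2.67 and 2.47 on the log2 scale. Of the inhibitors in the list, several rose. *Nfkbia*, which encodes IκBα, had 27.8, 27.8 and 25.5 in Sca-high NT, against 12.2, 9.46 and 10.9 scaled RPKM in Sca-high (1.32 ± 0.10, adjusted p = 1.18e-06). *Tnfaip3*, the ubiquitin-editing enzyme A20, had 4.76, 4.21 and 4.35 in Sca-high NT, against 1.74, 1.68 and 1.53 scaled RPKM in Sca-high (1.37 ± 0.07, adjusted p = 5.75e-08). *Nfkbib* (0.84), *Nfkbiz* (1.07) and *Tnip3* (2.90) were also called higher, and *Nfkbie* (-0.12), *Tnip1* (0.32) and *Tnip2* (0.22) were not called. Of the transcription factor subunits, *Nfkb2* (0.63 ± 0.08, adjusted p = 9.65e-05) and *Relb* (0.56 ± 0.07, adjusted p = 4.05e-05) were called higher and *Rela*, *Rel* and *Nfkb1* were not called, with log2 fold changes of -0.02, -0.35 and 0.33. The call of *Relb* was lost with a pseudocount of 1, and so were those of *Map3k8*, *Traf1*, *Icam1* and *Birc3*, all of low level. The one fall was that of *Csf1*, the macrophage growth factor, with 2.28, 3.24 and 2.85 in Sca-high NT, against 9.52, 7.99 and 7.52 scaled RPKM in Sca-high (-1.55 ± 0.14, adjusted p = 3.64e-06).

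**Figure D2:**
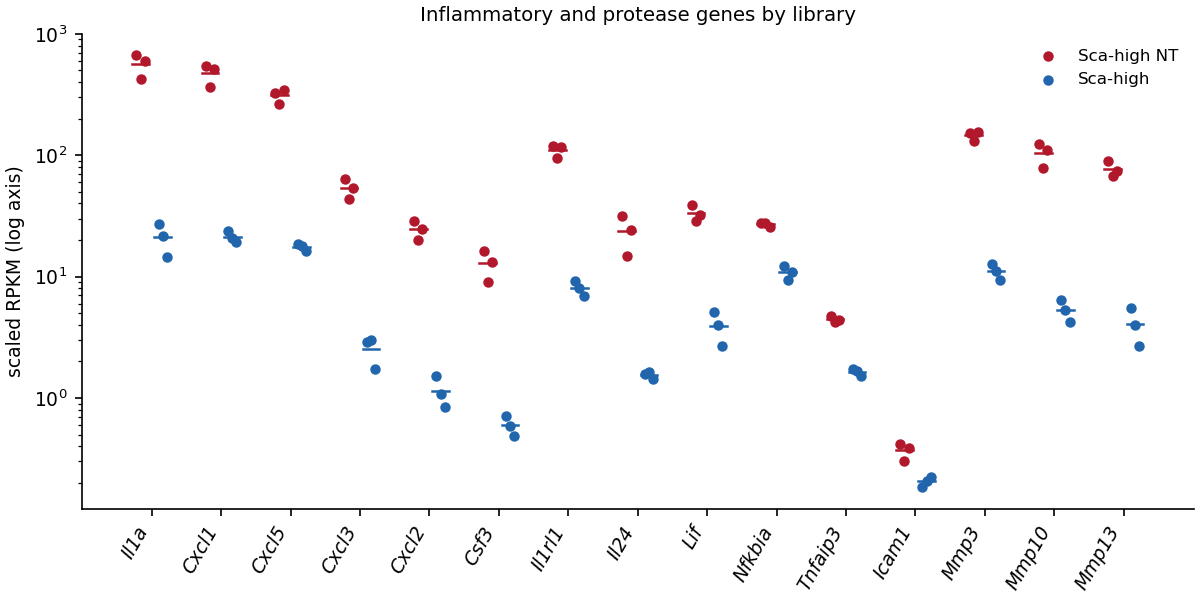
Scaled RPKM (log axis) of inflammatory and protease genes in each of 3 Sca-high NT libraries (red) and 3 Sca-high libraries (blue), with a line at each mean. The groups do not overlap for any of the 15 genes, and the log2 fold change is largest for *Il1a* (4.75) and smallest for *Icam1* (0.62).

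The promoters of the CXCR2 ligands and of the feedback inhibitors are shown around their κB motif, the letters that NF-κB dimers bind, to set the sequence beside the rise. Promoters of 300 bases (250 before to 50 after the start) were taken from RefSeq for 8412 of the 10586 tested genes and searched for GGANTTTCC on both strands, with a gene of several promoters counted once. Capitals mark the match on either strand.
Cxcl1, chr5:90891145-90891213, plus strand: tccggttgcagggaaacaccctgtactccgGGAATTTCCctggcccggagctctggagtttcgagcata
Cxcl2, chr5:90903773-90903841, plus strand: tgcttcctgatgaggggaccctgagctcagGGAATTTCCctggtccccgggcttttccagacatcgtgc
Cxcl3, chr5:90785999-90786067, plus strand: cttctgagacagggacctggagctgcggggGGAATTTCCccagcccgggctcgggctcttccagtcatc
Tnfaip3, chr10:19015396-19015464, minus strand: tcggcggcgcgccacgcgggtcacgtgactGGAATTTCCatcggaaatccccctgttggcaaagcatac
Nfkbia, chr12:55492638-55492706, minus strand: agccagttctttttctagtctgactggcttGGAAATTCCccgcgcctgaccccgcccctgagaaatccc
The motif begins at -70 in *Cxcl1*, -96 in *Cxcl2* and -72 in *Cxcl3*, counted from the transcription start, and the 9 letters are the same in all 3. Of the 6 chemokines called higher, 3 have a promoter in the table, and the motif was present in these 3. Among chemokines not called higher it was in 1 of 8. It was present in 5 of 15 NF-κB targets called higher (*Icam1*, *Nfkb2*, *Nfkbia*, *Tnfaip2* and *Tnfaip3*) and in 1 of 12 others of that list. In the IL-1 list it was in 3 of 6 called higher (*Il18rap*, *Il1rl1* and *Myd88*) and in 1 of 8 others. Over the whole table it was present in 1.45% of 27025 genes. Among tested genes it was found in 3.89% of those called higher and 1.66% of those called lower, against 1.58% of all tested genes with a promoter. *Il1a* has no match in this window, which says only that these letters are not in it. The lists were chosen with results of these data known. One of them was made of known NF-κB targets and regulators, so its share of the motif is no independent support. *Cxcl1*, *Cxcl2* and *Cxcl3* are close copies and do not count as separate cases. A match is a description of the letters and no measured binding site.

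The list of cytokines that signal through STAT3, with their receptors and feedback genes, had 6 of 18 tested genes called higher and 2 lower. These are shares of 33.3% and 11.1%, against 9.49% and 11.7% of all tested genes, so the falls were near that background. *Il24* had 31.6, 14.8 and 24.3 in Sca-high NT, against 1.59, 1.65 and 1.43 scaled RPKM in Sca-high (3.77 ± 0.21, adjusted p = 1.14e-07), with library 8 the lowest of Sca-high NT. *Il6* had 4.93, 5 and 5.95 in Sca-high NT, against 0.657, 0.923 and 0.737 scaled RPKM in Sca-high (2.63 ± 0.18, adjusted p = 4.05e-07). *Il19* (2.23) and *Il11* (1.02) rose, as did *Socs3*, the STAT3-induced inhibitor of this signal (15.4, 15.6 and 15.6 in Sca-high NT, against 8.7, 7.96 and 8.42 scaled RPKM in Sca-high). The tested receptors of the list were not called, except *Lifr*. *Lifr*, the receptor of LIF, fell, with 1.75, 1.99 and 1.87 in Sca-high NT, against 4.64, 5.12 and 4.26 scaled RPKM in Sca-high (-1.28 ± 0.08, adjusted p = 2.57e-07), whereas *Stat3*, with 15.7, 17.1 and 16.2 in Sca-high NT, against 14.5, 14.1 and 14.4 scaled RPKM in Sca-high, was not called (0.19 ± 0.06, adjusted p = 0.0298). Among 10 tested genes of prostaglandin synthesis and its receptors, the cyclooxygenases *Ptgs2* (448, 319 and 392 in Sca-high NT, against 86.1, 81.6 and 71.2 scaled RPKM in Sca-high, 2.27 ± 0.13, adjusted p = 1.62e-07) and *Ptgs1* (133, 108 and 125 in Sca-high NT, against 28.2, 28.4 and 28.9 scaled RPKM in Sca-high, 2.08 ± 0.13, adjusted p = 2.47e-07) and the prostaglandin E synthase *Ptges* (1.48 ± 0.20, adjusted p = 0.000116) rose. The receptor *Ptger1* fell by 0.70. *Pla2g4a*, which frees their substrate, was not called (0.33 ± 0.08, adjusted p = 0.00482).

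The interferon response did not share this direction. Of 34 tested genes, 2 were called higher and 4 lower, with a median of -0.13. These are shares of 5.88% and 11.8%, against 9.49% and 11.7% of all tested genes, so the falls were near that background. *Gbp2* (12.4, 11.9 and 13.4 in Sca-high NT, against 4.47, 5.13 and 4.78 scaled RPKM in Sca-high) and *Ifitm3* (328, 336 and 303 in Sca-high NT, against 181, 156 and 194 scaled RPKM in Sca-high) rose. *Zbp1*, a sensor of Z-form nucleic acid, fell, with 0.0989, 0.126 and 0.0901 in Sca-high NT, against 0.668, 0.606 and 0.488 scaled RPKM in Sca-high (-1.74 ± 0.12, adjusted p = 5.35e-07), and so did the RNA sensors *Ifih1* (-0.60) and *Tlr3* (-0.60) and *Rtp4* (-1.37), whose calls were lost at a pseudocount of 1. The call of *Ifih1* was also lost with the gene length trend removed and without library 3. *Zbp1* stayed below 1 scaled RPKM in all 6 libraries, so it was tested only through the other 6. Within antigen presentation by class I molecules, 4 of 12 tested genes were called higher (33.3%) and 2 lower (16.7%). *H2-D1* (1.02 ± 0.10, adjusted p = 7.64e-06), *H2-K1* (0.84 ± 0.09, adjusted p = 2.45e-05) and *H2-M3* (0.93 ± 0.12, adjusted p = 0.0001) rose, although reads of these homologous genes may be split uncertainly. *Psmb8*, a subunit of the immunoproteasome, fell, with 1.16, 1.38 and 1.34 in Sca-high NT, against 4.22, 4.19 and 4.46 scaled RPKM in Sca-high (-1.66 ± 0.13, adjusted p = 1.47e-06).

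Cholesterol synthesis was called higher nearly throughout. The pathway runs from acetyl-CoA through mevalonate and squalene to cholesterol, and its enzymes are controlled together by the transcription factor SREBP2, which sterols hold inactive with the help of INSIG1. Of 30 tested genes of the list, which holds the enzymes with their sterol-sensing regulators and uptake genes, 24 were called higher (80.0%, against 9.49% of all tested genes) and 0 lower, with a median of 1.85. Below 0 none had an unadjusted limma p under 0.05, and limma-voom on recovered reads called 0 lower as well. The 6 not called were *Dhcr7* (0.67 ± 0.25, adjusted p = 0.0422), *Ggps1* (0.30), *Lbr* (0.28), *Scap* (-0.10), *Insig2* (-0.10) and *Npc1* (-0.14). *Hmgcs1* is listed at 0.0042 scaled RPKM or less in all 12 libraries, which for an enzyme that growing cells use may be a failed estimate, and it was not tested.

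Along the pathway, *Mvk*, *Pmvk* and *Mvd*, the kinases and the decarboxylase that act on mevalonate, rose by 1.63, 2.30 and 2.49 on the log2 scale. *Idi1*, which makes the allylic isoprene unit, had 52.4, 52.1 and 52.5 in Sca-high NT, against 7.15, 6.11 and 5.27 scaled RPKM in Sca-high (3.07 ± 0.11, adjusted p = 5.38e-09). *Fdps*, which joins these units to farnesyl diphosphate, had 239, 226 and 255 in Sca-high NT, against 27.1, 28.6 and 27.3 scaled RPKM in Sca-high (3.11 ± 0.14, adjusted p = 2.63e-08). The values within each group were close for both genes, and the groups lay far apart. *Fdft1*, the squalene synthase, rose by 2.59. *Sqle*, the squalene epoxidase, had 59.8, 55.7 and 61.8 in Sca-high NT, against 14.8, 14.8 and 14.3 scaled RPKM in Sca-high (2.00 ± 0.05, adjusted p = 2.28e-09). *Lss*, which closes the sterol ring, had 32.9, 31.4 and 31.1 in Sca-high NT, against 5.28, 4.88 and 4.41 scaled RPKM in Sca-high (2.69 ± 0.08, adjusted p = 3.06e-09). Sca-low libraries averaged 35.2 scaled RPKM of *Sqle* and 5.01 scaled RPKM of *Lss*, both below the Sca-high NT libraries. Behind lanosterol, *Cyp51* had 99.1, 86.5 and 103 in Sca-high NT, against 13.8, 14.5 and 13.5 scaled RPKM in Sca-high (2.78 ± 0.10, adjusted p = 5.38e-09). *Nsdhl* had 54.5, 47.1 and 50.3 in Sca-high NT, against 6.76, 5.83 and 5.01 scaled RPKM in Sca-high (3.10 ± 0.11, adjusted p = 5.38e-09), and *Msmo1* (2.64), *Hsd17b7* (2.82), *Sc5d* (1.92) and *Ebp* (0.80) rose as well. Of the last steps *Dhcr7* was not called, with 12.1, 13 and 9.59 in Sca-high NT, against 9.3, 7.24 and 5.5 scaled RPKM in Sca-high, where library 9 of Sca-high NT lay close to library 1 of Sca-high.

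Of the genes of sterol feedback, *Insig1* and *Srebf2* were called higher and *Insig2* and *Scap* were not called. *Insig1* had 34, 27.6 and 33.9 in Sca-high NT, against 3.74, 3.79 and 3.83 scaled RPKM in Sca-high (3.03 ± 0.10, adjusted p = 5.38e-09). *Srebf2* itself, which encodes SREBP2, had 16.2, 18.5 and 14.1 in Sca-high NT, against 10.8, 8.45 and 6.05 scaled RPKM in Sca-high (0.97 ± 0.21, adjusted p = 0.00241), and its call was lost without library 8 and without libraries 3 and 8 together. The related *Srebf1* was not called (17.1, 19.3 and 16 in Sca-high NT, against 15.7, 14.3 and 13.9 scaled RPKM in Sca-high, 0.25 ± 0.10, adjusted p = 0.0461). Genes of cholesterol export and storage did not move as one, with 3 of 8 tested called higher (37.5%) and 2 lower (25.0%). *Ch25h*, which makes an oxysterol, rose (10.4, 13.4 and 12 in Sca-high NT, against 2.23, 2.06 and 1.85 scaled RPKM in Sca-high, 2.48 ± 0.19, adjusted p = 1.11e-06), and *Soat1*, which esterifies cholesterol, rose by 0.78. *Abca1*, the exporter that oxysterols induce through LXR, fell (0.564, 0.839 and 0.616 in Sca-high NT, against 1.36, 1.45 and 1.13 scaled RPKM in Sca-high, -0.88 ± 0.17, adjusted p = 0.00119), and so did *Mylip*, another LXR target (-0.94), both with calls lost at a pseudocount of 1.

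**Figure D3:**
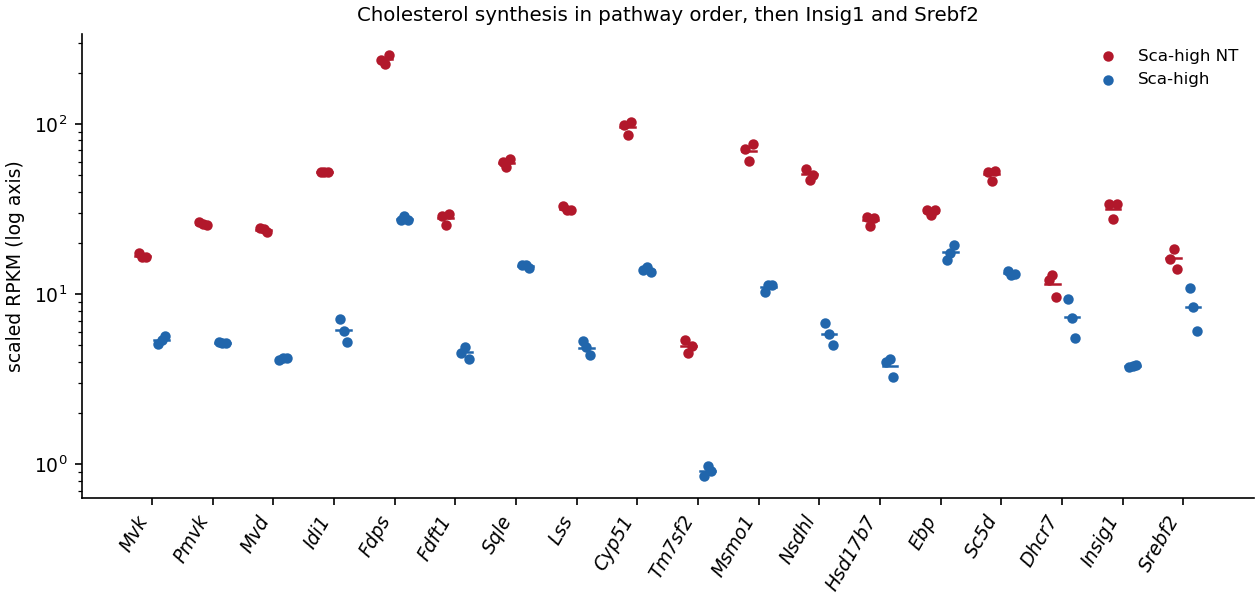
Scaled RPKM (log axis) of cholesterol synthesis genes in pathway order, followed by *Insig1* and *Srebf2*, in each of 3 Sca-high NT libraries (red) and 3 Sca-high libraries (blue), with a line at each mean. The groups do not overlap for any gene shown, they come closest for *Dhcr7*, and the log2 fold change of the called genes runs from 0.80 for *Ebp* to 3.11 for *Fdps*.

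Fatty acid synthesis and desaturation were called higher in 15 of 21 tested genes (71.4%) and lower in 0, with a median of 0.87. Below 0 there were 2 genes with an unadjusted limma p under 0.05, and limma-voom called 0 lower. *Scd2*, a desaturase that makes oleate, had 237, 250.2 and 229.7 in Sca-high NT, against 96.8, 90.03 and 72.1 scaled RPKM in Sca-high. *Scd1*, of the same family, had 75.1, 77.4 and 77.8 in Sca-high NT, against 32.7, 33.2 and 29 scaled RPKM in Sca-high. *Elovl6*, an elongase, had 17.3, 16.7 and 17.8 in Sca-high NT, against 5.3, 5.29 and 5.05 scaled RPKM in Sca-high (1.71 ± 0.06, adjusted p = 5.16e-09). *Acly*, which supplies cytosolic acetyl-CoA, had 73.5, 74.8 and 72.7 in Sca-high NT, against 29.7, 29.9 and 30.6 scaled RPKM in Sca-high (1.29 ± 0.05, adjusted p = 5.43e-09). *Fasn*, the synthase itself, was not called and its groups overlapped (38.6, 48.4 and 35.8 in Sca-high NT, against 41, 35.1 and 25.8 scaled RPKM in Sca-high, 0.28 ± 0.22, adjusted p = 0.315), and *Acaca*, which makes its substrate, was not called either (0.38 ± 0.09, adjusted p = 0.00499). The lowest of the list were *Gpam* (-0.44) and *Acsl1* (-0.44), which esterify and activate fatty acids and were not called.

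Promoters of sterol genes are shown around a CCAAT box, the site of NF-Y, which binds beside SREBP at these genes. The letters CCAAT were searched on both strands of the 300 bases, and capitals mark the match on either strand, so that ATTGG is the motif read on the other one.
Lss, chr10:76531513-76531577, plus strand: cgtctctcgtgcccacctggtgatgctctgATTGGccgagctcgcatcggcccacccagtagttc
Insig1, chr5:28071166-28071230, plus strand: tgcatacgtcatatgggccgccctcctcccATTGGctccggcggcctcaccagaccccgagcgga
Cyp51, chr5:4104692-4104756, minus strand: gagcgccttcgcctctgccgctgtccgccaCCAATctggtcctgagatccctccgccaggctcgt
The box was present in 15 of the 16 called cholesterol genes with a promoter in the table, all except *Acat2*, and in 4 of the 5 that were not called. It is a frequent string, found in 41.1% of all 27025 genes, in 43.4% of tested genes and in 42.8% of genes called higher, and in the fatty acid list it was in 6 of 12 called genes and 5 of 6 others. One spelling of the sterol element, TCACNCCAC, was found in 1.44% of all genes and in 0 of the 16 called cholesterol genes, which says only that these letters are not in the windows searched.

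Keratins separated into those that rose, those that were not called and those that fell. Keratins 6, 16 and 17 are the set that stratified epithelia make in wounds and in hyperproliferation. *Krt17* had 682, 535 and 607 in Sca-high NT, against 55.7, 52.4 and 46.7 scaled RPKM in Sca-high (3.55 ± 0.16, adjusted p = 1.8e-08). *Krt6a* had 288, 218 and 257 in Sca-high NT, against 66.1, 66.9 and 80.8 scaled RPKM in Sca-high (1.83 ± 0.16, adjusted p = 2.97e-06). *Krt16* had 36.1, 33.7 and 33.1 in Sca-high NT, against 8.14, 6.98 and 8.48 scaled RPKM in Sca-high (2.11 ± 0.12, adjusted p = 1.18e-07) and *Krt6b* had 2.9, 1.49 and 2.17 scaled RPKM in Sca-high NT and 0.312, 0.359 and 0.455 scaled RPKM in Sca-high. All 4 tested members of that list were called higher, and the groups were apart in each. *Krt6a* and *Krt6b*, and *Krt16* and *Krt17*, are near copies, and the split of reads within each pair is uncertain. The keratins of the resting basal layer, *Krt5* and *Krt14*, were not called, with log2 fold changes of -0.01 ± 0.27, adjusted p = 0.972 and 0.11 ± 0.13, adjusted p = 0.481. *Krt15*, a keratin of quiescent basal cells, had 0.373, 0.612 and 0.453 in Sca-high NT, against 5.83, 5.49 and 7.71 scaled RPKM in Sca-high (-3.48 ± 0.20, adjusted p = 1.48e-07), and *Krt13* fell by 1.82. Of the simple epithelial keratins, *Krt18* fell (2.7, 2.66 and 2.28 in Sca-high NT, against 9.35, 8.22 and 9.49 scaled RPKM in Sca-high, -1.79 ± 0.09, adjusted p = 3.6e-08), *Krt8* fell by 0.70 with a call lost at a pseudocount of 1 and without libraries 3 and 8, and *Krt7* was not called (-0.45 ± 0.11, adjusted p = 0.00702).

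Genes of the cornified envelope and its secreted companions, which keratinocytes make late in differentiation, were called higher in 11 of 19 tested genes (57.9%) and lower in 4 (21.1%), with a median of 1.30. The list holds 40 genes in the table, so 21 of them lay below the filter. *Serpinb2*, the inhibitor PAI-2, had 334, 198 and 285 in Sca-high NT, against 28.3, 28.4 and 28.8 scaled RPKM in Sca-high (3.22 ± 0.21, adjusted p = 3.02e-07). *Krtdap* (79.3, 67.5 and 76.8 in Sca-high NT, against 13.4, 15.9 and 16.6 scaled RPKM in Sca-high), *Sbsn* (38.1, 27.1 and 31.5 in Sca-high NT, against 5.88, 4.76 and 4.79 scaled RPKM in Sca-high) and *Dmkn* (32.7, 24.2 and 24.1 in Sca-high NT, against 3.1, 2.1 and 2.44 scaled RPKM in Sca-high) encode secreted proteins of the upper epidermis and rose. *Ivl*, involucrin, had 28.9, 29.5 and 28.6 in Sca-high NT, against 8.23, 6.45 and 8.07 scaled RPKM in Sca-high (1.93 ± 0.21, adjusted p = 2.03e-05), and the calprotectin genes *S100a8* and *S100a9* rose by 3.79 and 3.73 on the log2 scale. *S100a8* had 15.5, 12.5 and 17.3 scaled RPKM in Sca-high NT, against 1.26, 0.719 and 1.07 scaled RPKM in Sca-high. *Lce1g*, another envelope gene, was among the 12 largest rises, with 29.8, 19.9 and 22.8 in Sca-high NT, against 2, 1.13 and 0.841 scaled RPKM in Sca-high (4.16 ± 0.27, adjusted p = 3.2e-07), though it belongs to a cluster of close copies. *Lor*, loricrin, did not exceed 0.0137 scaled RPKM in the 6 libraries. The falls were those of the junctional and envelope proteins *Ppl* (-1.64), *Evpl* (-0.74) and *Dsc2* (-0.91), each below 1 scaled RPKM with a call lost at a pseudocount of 1, and of the protease *Klk8* (0.932, 0.698 and 0.617 in Sca-high NT, against 1.76, 1.8 and 2.43 scaled RPKM in Sca-high).

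**Figure D4:**
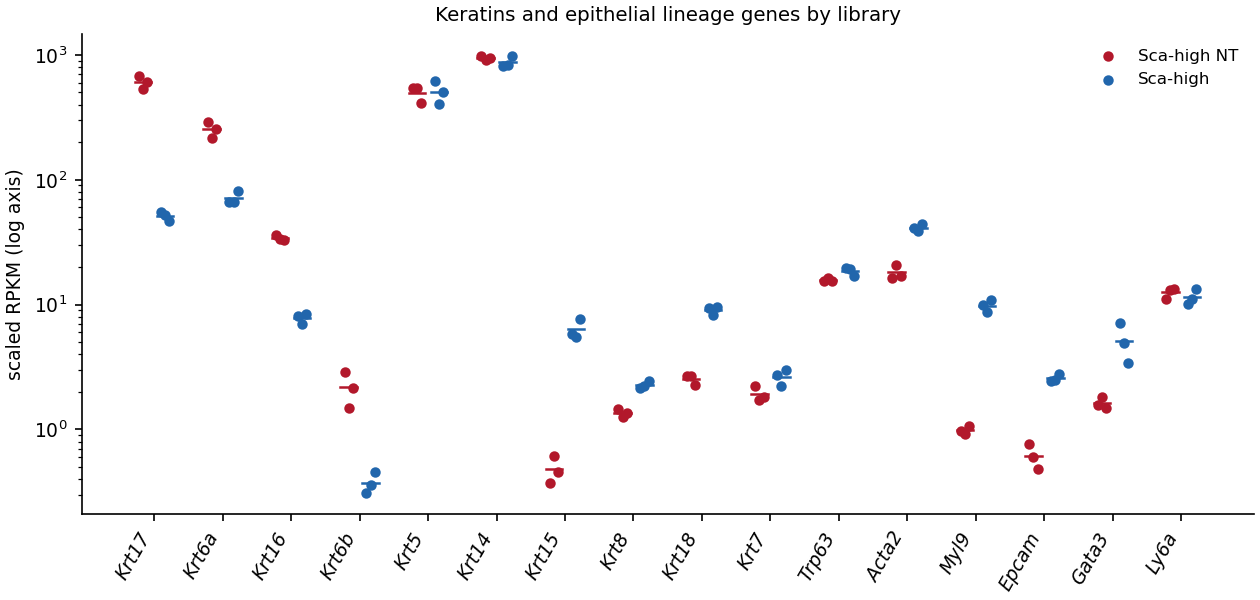
Scaled RPKM (log axis) of keratins and of epithelial lineage genes in each of 3 Sca-high NT libraries (red) and 3 Sca-high libraries (blue), with a line at each mean. *Krt17*, *Krt6a*, *Krt16* and *Krt6b* are higher in Sca-high NT, *Krt5*, *Krt14* and *Ly6a* overlap, and *Krt15*, *Krt18*, *Myl9*, *Acta2*, *Epcam* and *Gata3* are lower.

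Extracellular proteases and the plasminogen system were called higher in 10 of 19 tested genes (52.6%) and lower in 4 (21.1%). The stromelysins *Mmp3* (153, 130.2 and 154 in Sca-high NT, against 12.6, 11.2 and 9.36 scaled RPKM in Sca-high, 3.72 ± 0.21, adjusted p = 1.24e-07) and *Mmp10* (123, 77.9 and 109.6 in Sca-high NT, against 6.39, 5.34 and 4.21 scaled RPKM in Sca-high, 4.25 ± 0.26, adjusted p = 1.99e-07) and the collagenase *Mmp13* (88.9, 67.4 and 74.2 in Sca-high NT, against 5.53, 4 and 2.68 scaled RPKM in Sca-high, 4.26 ± 0.30, adjusted p = 5.83e-07) rose most. *Mmp12* (1.71), *Adamts1* (2.39) and the plasminogen activator *Plau* (43.5, 34.5 and 37.6 in Sca-high NT, against 11.9, 11.5 and 11.4 scaled RPKM in Sca-high, 1.72 ± 0.08, adjusted p = 2.63e-08) with its receptor *Plaur* (0.93) rose too. *Mmp14*, the membrane-bound activator of other metalloproteases, fell by 0.58, a call lost without library 1, 2, 7 or 9, and *Mmp11* fell by 1.52. Of the inhibitors, *Timp3* fell (2.91, 2.58 and 2.78 in Sca-high NT, against 6.34, 6.08 and 5.76 scaled RPKM in Sca-high, -1.11 ± 0.09, adjusted p = 1.61e-06), and *Timp1* (0.36) and *Timp2* (-0.25) were not called.

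The AP-1 motif TGANTCA, letters that Jun and Fos dimers can bind, lies close to the start of several of these genes. The stretches are shown with the match in capitals.
Mmp3, chr9:7445746-7445812, plus strand: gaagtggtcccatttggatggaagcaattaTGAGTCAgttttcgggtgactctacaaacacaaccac
Mmp10, chr9:7502249-7502315, plus strand: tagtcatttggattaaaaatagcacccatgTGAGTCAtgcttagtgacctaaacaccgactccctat
Mmp13, chr9:7272449-7272515, plus strand: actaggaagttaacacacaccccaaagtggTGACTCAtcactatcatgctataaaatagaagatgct
Il1a, chr2:129309948-129310014, minus strand: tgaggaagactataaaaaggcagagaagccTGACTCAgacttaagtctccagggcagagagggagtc
On both strands of the 300 bases the motif was found in 6 of the 7 genes called higher in the list of proteases and the plasminogen system that have a promoter in the table, the metalloproteases *Mmp3*, *Mmp10*, *Mmp12* and *Mmp13*, the receptor *Plaur* and the inhibitor *Serpinb2*. It was found in 0 of 6 of that list that were not called higher. In the cornified envelope list it was in 7 of 10 called higher and in 0 of 4 others. It was present in 8.97% of all 27025 genes, in 6.09% of tested genes, in 10.8% of those called higher and in 6.87% of those called lower. *Serpinb2* counts in both lists, and the lists were chosen with results of these data known. Here too a match describes the letters and is no measured binding site.

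The transcripts of AP-1 itself changed less than these genes. Of 19 early response genes tested, 7 were called higher (36.8%) and 1 lower (5.26%). *Junb* had 66.8, 71.8 and 67.4 in Sca-high NT, against 48, 46.5 and 47.9 scaled RPKM in Sca-high (0.53 ± 0.08, adjusted p = 0.000178), a call lost when the trend with gene length was removed, and *Jund* rose by 0.88. *Fos* (4.66, 3.6 and 4.11 in Sca-high NT, against 3.23, 3.11 and 3.29 scaled RPKM in Sca-high), *Jun* (10.7, 10.8 and 9.14 in Sca-high NT, against 9.53, 6.86 and 6.41 scaled RPKM in Sca-high), *Fosl1* (0.30) and *Fosl2* (0.35) were not called. *Atf3*, which pairs with Jun proteins, had 9.17, 7.35 and 9.19 in Sca-high NT, against 1.87, 2.07 and 2.27 scaled RPKM in Sca-high (2.00 ± 0.14, adjusted p = 7.2e-07), and *Maff* rose by 1.74. *Egr1* had 4.5, 6.27 and 4.27 in Sca-high NT, against 15, 10.8 and 6.59 scaled RPKM in Sca-high, with the Sca-high libraries widely apart, and was not called (-1.03 ± 0.31, adjusted p = 0.0176).

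Several ligands of the EGF receptor, a pathway that drives growth and migration of mammary epithelium, rose. *Ereg* had 117, 87.7 and 109 in Sca-high NT, against 12.3, 11.9 and 10.3 scaled RPKM in Sca-high (3.16 ± 0.12, adjusted p = 6.4e-09). *Areg*, the amphiregulin that oestrogen induces in the gland, had 56.8, 44.9 and 54.1 in Sca-high NT, against 8.27, 7.22 and 7.15 scaled RPKM in Sca-high (2.76 ± 0.12, adjusted p = 1.35e-08). *Epgn* had 98.9, 70.5 and 94.5 in Sca-high NT, against 15.3, 18.6 and 18 scaled RPKM in Sca-high (2.33 ± 0.20, adjusted p = 3.68e-06). *Hbegf* (1.24) rose, and so did *Nrg1* (1.34), a ligand of the related receptors ERBB3 and ERBB4. The EGF receptor ligands *Tgfa* (0.25 ± 0.10, adjusted p = 0.0633) and *Btc* (0.17 ± 0.15, adjusted p = 0.387) were not called. *Egf* itself was below the filter, with 0.0649, 0.0713 and 0.0613 scaled RPKM in Sca-high NT and 0.183, 0.163 and 0.141 scaled RPKM in Sca-high. The receptor *Egfr* was not called (11.8, 11 and 11.6 in Sca-high NT, against 8.81, 9.18 and 8.53 scaled RPKM in Sca-high, 0.37 ± 0.07, adjusted p = 0.00173), nor was the sheddase *Adam17* (0.30), and the negative regulators *Errfi1* (1.38 ± 0.09, adjusted p = 2.44e-07) and *Lrig1* (0.89 ± 0.06, adjusted p = 2.53e-07) rose. In all, 8 of 14 tested genes of this family were called higher (57.1%) and 1 lower (7.14%), with a median of 0.88. The feedback genes of the ERK cascade behind the receptor were split. *Ier3* had 521, 374 and 453 in Sca-high NT, against 50.4, 45.8 and 46.6 scaled RPKM in Sca-high (3.22 ± 0.11, adjusted p = 5.38e-09), and the phosphatases *Dusp1* (15.8, 12.4 and 13.5 in Sca-high NT, against 3.29, 2.99 and 3.29 scaled RPKM in Sca-high), *Dusp10* (1.98) and *Dusp5* (1.22) rose, whereas *Spry1* (0.308, 0.328 and 0.449 in Sca-high NT, against 1.04, 0.837 and 0.938 scaled RPKM in Sca-high, -1.18 ± 0.12, adjusted p = 1.04e-05) and *Etv5* (2, 2.24 and 2.07 in Sca-high NT, against 4.71, 4.42 and 4.09 scaled RPKM in Sca-high, -1.03 ± 0.10, adjusted p = 9.03e-06) fell, and *Dusp6* was not called (0.30). That list counted 5 higher (31.2%) and 3 lower (18.8%) of 16 tested.

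Other large rises lay outside the lists. *Fgfbp1*, a secreted carrier of fibroblast growth factors, had 158, 121 and 156 in Sca-high NT, against 7.86, 6.71 and 4.5 scaled RPKM in Sca-high (4.52 ± 0.22, adjusted p = 4.23e-08). *Prl8a9*, a prolactin-like gene known from the rodent placenta, had 109.7, 79.5 and 109 in Sca-high NT, against 4.3, 3.95 and 2.99 scaled RPKM in Sca-high (4.69 ± 0.23, adjusted p = 3.6e-08), and it has close copies in its cluster. *Rgs16*, which shortens G protein signals, had 32.3, 24.9 and 27.4 in Sca-high NT, against 2.16, 1.33 and 1.02 scaled RPKM in Sca-high (4.19 ± 0.21, adjusted p = 4.43e-08).

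Lineage genes changed in both directions, with the basal list split and the luminal list called lower more often than higher. Of 20 tested basal and myoepithelial genes, 4 were called higher and 5 lower, with a median of 0.02. *Lamb3*, a laminin chain that anchors basal cells, rose, with 92, 75.9 and 79 in Sca-high NT, against 31.3, 28.3 and 28.5 scaled RPKM in Sca-high (1.48 ± 0.08, adjusted p = 1.16e-07). *Procr*, the protein C receptor, which marks a class of mammary stem cells in the mouse, had 74.6, 51.9 and 67.6 in Sca-high NT, against 6.86, 5.94 and 6.64 scaled RPKM in Sca-high (3.29 ± 0.19, adjusted p = 1.62e-07). Of the contractile genes of myoepithelium, *Myl9*, *Acta2* and *Tagln* fell and *Tpm2* was not called (0.01 ± 0.08, adjusted p = 0.932). *Cnn1* was below the filter, with 0.145, 0.131 and 0.106 scaled RPKM in Sca-high NT and 0.0522, 0.0815 and 0.0857 scaled RPKM in Sca-high. *Myl9* had 0.976, 0.918 and 1.07 in Sca-high NT, against 9.85, 8.77 and 10.8 scaled RPKM in Sca-high (-3.19 ± 0.12, adjusted p = 5.57e-09). *Acta2*, smooth muscle actin, had 16.4, 20.7 and 17.1 in Sca-high NT, against 41.2, 38.6 and 43.9 scaled RPKM in Sca-high (-1.19 ± 0.10, adjusted p = 3.1e-06). *Tagln* had 0.944, 1.1 and 0.852 in Sca-high NT, against 3.21, 3.26 and 3.22 scaled RPKM in Sca-high (-1.65 ± 0.10, adjusted p = 1.35e-07). *Vim*, the mesenchymal filament protein, fell by 0.67 and remained at 285, 311 and 299 scaled RPKM in Sca-high NT, against 468, 448 and 512 scaled RPKM in Sca-high.

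Luminal genes were called lower in 11 of 21 tested genes (52.4%, against 11.7% of all tested genes) and higher in 2 (9.52%, against 9.49%), with a median of -0.62. *Epcam* had 0.769, 0.603 and 0.478 in Sca-high NT, against 2.46, 2.47 and 2.79 scaled RPKM in Sca-high (-1.92 ± 0.16, adjusted p = 2.61e-06). *Gata3*, the luminal master regulator, had 1.56, 1.82 and 1.47 in Sca-high NT, against 7.09, 4.92 and 3.44 scaled RPKM in Sca-high (-1.56 ± 0.28, adjusted p = 0.000739). Sca-low libraries averaged 111 scaled RPKM of *Epcam* and 543 scaled RPKM of *Krt18*, so both groups of Sca-high cells held little of either. *Krt18* stood at 0.47% of the Sca-low mean in Sca-high NT and at 1.66% in Sca-high, and *Epcam* at 0.555% in Sca-high NT and 2.31% in Sca-high. Over the 13 listed genes with at least 10 scaled RPKM in Sca-low cells, the median was 0.87% of the Sca-low level in Sca-high NT and 2.31% in Sca-high. The part of Sca-low cells left after the sort in these values was not tested. *Cd24a* was not called (0.24 ± 0.10, adjusted p = 0.0627) and stood at 29.3% of the Sca-low mean in Sca-high NT and 24.8% in Sca-high, and *Gata3*, with a mean of 2.05 scaled RPKM in Sca-low libraries, was lower there than in Sca-high. Of the 11 falls, 8 lost their call with a pseudocount of 1, among them *Cdh1* (-1.21) and *Esrp1* (-1.05), which stay below 1 scaled RPKM in all 6 libraries. Such genes were tested only because they passed the filter through the other 6 libraries. The share of 52.4% thus rests in part on genes of low level in both groups. *Areg* and *Esrp2* (1.30 ± 0.10, adjusted p = 1.11e-06) were the members that rose.

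Mesenchymal and matrix genes were called higher in 7 (20.6%) and lower in 8 (23.5%) of 34 tested. *Fn1*, fibronectin, had 10.9, 13.8 and 10.1 in Sca-high NT, against 52.8, 47.1 and 24.6 scaled RPKM in Sca-high (-1.77 ± 0.28, adjusted p = 0.000326). *Tgfbi* had 18.8, 28.1 and 18.3 in Sca-high NT, against 75.1, 64.5 and 54.2 scaled RPKM in Sca-high (-1.58 ± 0.20, adjusted p = 7.79e-05). *Postn*, periostin, had 0.0573, 0.151 and 0.133 scaled RPKM in Sca-high NT and 1.65, 2.13 and 2.11 scaled RPKM in Sca-high (-3.29 ± 0.17, adjusted p = 5.63e-08). *Snai1* fell by 1.16 and *Snai2* was not called (0.36 ± 0.29, adjusted p = 0.313). *Twist2* had 22.3, 18 and 20.04 in Sca-high NT, against 7.01, 6.98 and 6.13 scaled RPKM in Sca-high (1.57 ± 0.16, adjusted p = 1.39e-05) and *Prrx1* rose by 0.98. In the BMP pathway, which has 6 genes called higher and 6 lower of 15, the inhibitors of differentiation *Id1* (19.95, 23.4 and 20.1 in Sca-high NT, against 8.32, 6.44 and 7.64 scaled RPKM in Sca-high, 1.49 ± 0.14, adjusted p = 6.74e-06) and *Id3* (23.9, 25.7 and 24.6 in Sca-high NT, against 5.99, 7.08 and 7.99 scaled RPKM in Sca-high, 1.81 ± 0.11, adjusted p = 2.77e-07) rose and *Id4* fell (3.67, 5.32 and 4.33 in Sca-high NT, against 14.7, 15.2 and 17 scaled RPKM in Sca-high, -1.81 ± 0.13, adjusted p = 6.24e-07). The ligand *Bmp2* (1.67, 1.48 and 1.54 in Sca-high NT, against 0.345, 0.308 and 0.147 scaled RPKM in Sca-high, 2.23 ± 0.24, adjusted p = 1.84e-05) and the antagonist *Grem1* (3.33) rose. Both counts of the BMP list are shares of 40.0%. YAP targets were called higher in 6 of 20 tested genes, among them *Ctgf* (9.59, 10.7 and 8.94 in Sca-high NT, against 4.72, 3.93 and 3.13 scaled RPKM in Sca-high, 1.30 ± 0.15, adjusted p = 3.85e-05) and *Cyr61* (65.1, 53.8 and 56.1 in Sca-high NT, against 37.3, 33 and 31.5 scaled RPKM in Sca-high, 0.78 ± 0.08, adjusted p = 1.47e-05), and lower in 1.

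Wnt signalling, which sustains mammary stem cells, was called lower in 12 of 35 tested genes (34.3%, against 11.7% of all tested genes) and higher in 4 (11.4%, against 9.49%), with a median of -0.27. *Wnt7b* had 1.14, 1.61 and 1.28 in Sca-high NT, against 10.1, 10.04 and 10.3 scaled RPKM in Sca-high (-2.84 ± 0.10, adjusted p = 5.38e-09), and *Wnt7a*, a ligand of the same class, went the other way, with 2.1, 1.19 and 1.51 in Sca-high NT, against 0.193, 0.173 and 0.096 scaled RPKM in Sca-high (2.73 ± 0.20, adjusted p = 1e-06). Of the receptors, *Fzd1*, *Fzd2* and *Fzd7* fell by 0.72, 0.76 and 0.65, *Lgr6*, a receptor of the Wnt agonists R-spondins, fell (0.632, 0.657 and 0.648 in Sca-high NT, against 3.92, 3.59 and 3.1 scaled RPKM in Sca-high, -2.28 ± 0.08, adjusted p = 5.38e-09), and *Fzd5* rose (5.69, 5.34 and 5.2 in Sca-high NT, against 1.24, 1.03 and 0.732 scaled RPKM in Sca-high, 2.35 ± 0.17, adjusted p = 8.07e-07). Of the inhibitors, *Dkk3* fell, with 7.76, 10.6 and 9.27 in Sca-high NT, against 19.8, 20.3 and 22.6 scaled RPKM in Sca-high (-1.19 ± 0.13, adjusted p = 1.81e-05), and *Sfrp1* (-1.73) and *Nkd2* (-2.47) fell too. *Notum* (-0.04), *Kremen1* (-0.37), *Znrf3* (-0.27), *Axin1* (-0.27) and *Apc* (-0.21), which also restrain this pathway, were not called. The direct target *Axin2* was not called (1.45, 1.46 and 1.46 in Sca-high NT, against 1.87, 1.72 and 1.39 scaled RPKM in Sca-high, -0.17 ± 0.11, adjusted p = 0.225). Notch genes were called lower in 6 of 18 tested (33.3%) and higher in 0, with 2 genes above 0 at an unadjusted limma p under 0.05 and 0 called higher by limma-voom. *Notch1* had 1.07, 1.77 and 1.09 in Sca-high NT, against 6.5, 5.76 and 3.87 scaled RPKM in Sca-high (-1.96 ± 0.22, adjusted p = 2.81e-05) and its ligand *Jag1* had 12.5, 14.7 and 12.2 in Sca-high NT, against 48.8, 46.8 and 36 scaled RPKM in Sca-high (-1.72 ± 0.18, adjusted p = 1.29e-05), with the groups apart in both. *Hes1*, a direct Notch target, was not called (18.6, 20.3 and 19.8 in Sca-high NT, against 18, 17.2 and 17.7 scaled RPKM in Sca-high, 0.15 ± 0.05, adjusted p = 0.0427).

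Targets of miR-34 known from published work, *Notch1* and *Jag1* among them, were counted as a list. Some of its genes, such as *Pip5k1a*, were picked by the study with expression data of these cells, so the list is not independent of them. Of 43 tested, 4 were called higher and 7 lower (9.30% and 16.3%, against 9.49% and 11.7% of all tested genes), with a median of -0.07. Those called lower were *Notch1*, *Jag1*, *Snai1*, *Fzd2*, *Fzd1*, *Bcl2* (1.01, 1.04 and 0.969 in Sca-high NT, against 1.76, 1.75 and 1.58 scaled RPKM in Sca-high) and *Tgif2*, with calls of *Bcl2* and *Tgif2* lost at a pseudocount of 1. The call of *Bcl2* was also lost with the gene length trend removed, and that of *Tgif2* without library 7. Those called higher were *Areg*, *Klf4* (3.5, 2.99 and 2.9 in Sca-high NT, against 1.9, 1.41 and 1.1 scaled RPKM in Sca-high), *Nampt* (0.58) and *Pip5k1a* (0.56). The letters CACTGCC, the complement of the seed shown above, were counted in the longest annotated 3′ UTR of 10209 tested genes. The median log2 fold change was -0.095 over 1749 genes with at least 1 site and -0.005 over 8460 genes without one, and the genes with sites had longer 3′ UTRs, with a median of 2225 against 1010 bases. Among genes with 3′ UTRs of 500 to 1000 bases the medians were 0 with sites and 0.018 without. They were -0.09 with sites and -0.028 without at 1000 to 2000 bases, and -0.092 with sites and -0.056 without at 2000 to 4000 bases. After removal of the trend with gene length they were -0.025 over all genes with sites and 0.002 over those without. Called lower were 14.7% of genes with a site and 11.1% of those without one over all lengths, against 11.2% and 9.52% at 500 to 1000 bases, 14.2% and 12.4% at 1000 to 2000 bases and 13.6% and 13.2% at 2000 to 4000 bases. Called higher were 8.58% with a site and 9.98% without one over all lengths, and 11.7% and 10.1%, 8.47% and 10.1%, and 9.64% and 8.07% in the same 3 classes. Over the 322 genes with 2 or more sites the median was -0.188, and -0.074 after removal of that trend. Their median 3′ UTR was 3180 bases, and 18.9% were called lower and 4.97% higher. In the same 3 classes these genes numbered 19, 57 and 125, with medians of 0.01, -0.121 and -0.154. Called lower were 5.26%, 12.3% and 16.8% of them, and called higher 15.8%, 3.51% and 6.4%. These differences were not tested.

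**Figure D5:**
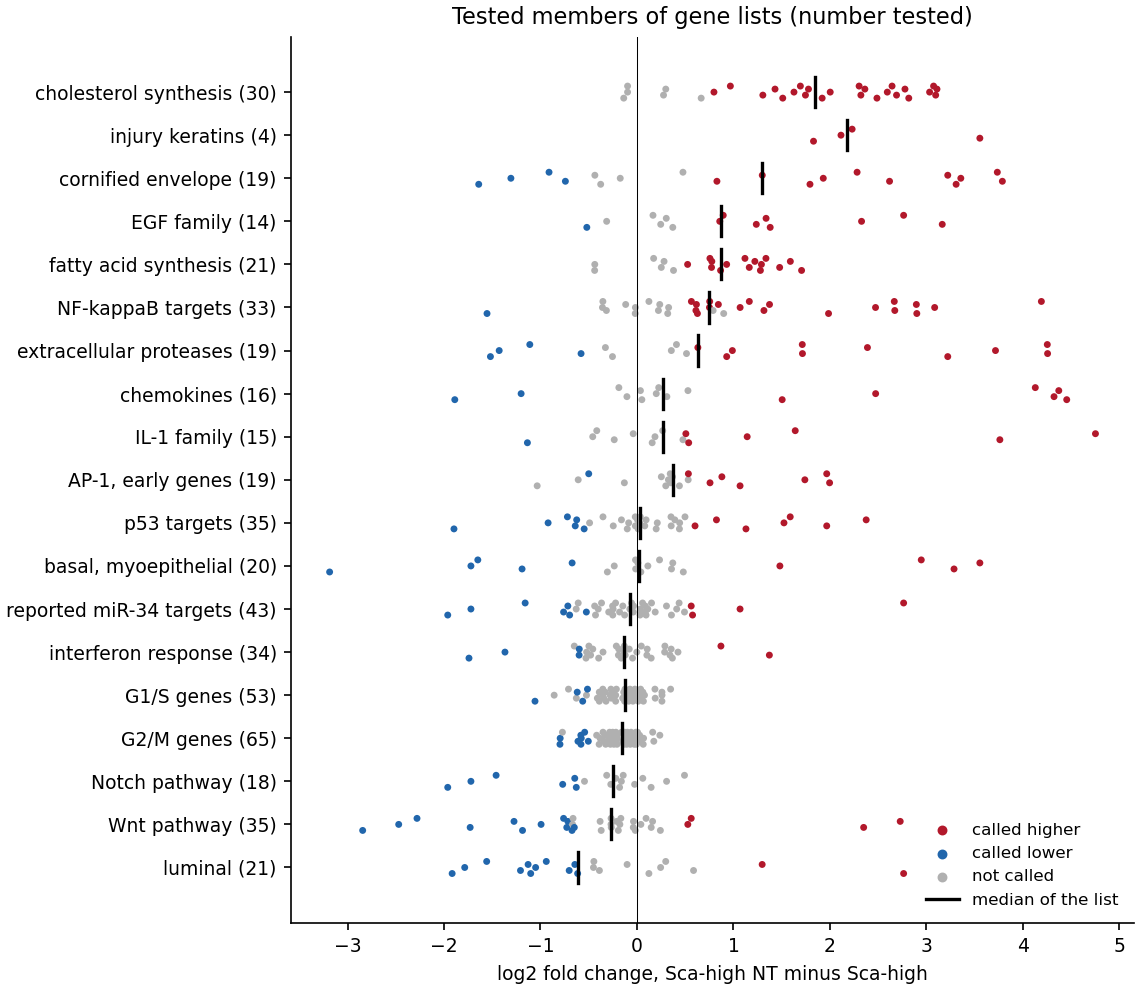
Log2 fold change of Sca-high NT minus Sca-high (horizontal) for the tested members of 19 gene lists, with the number tested in brackets, coloured red where called higher, blue where called lower and grey where not called, and a bar at the list's median. Cholesterol synthesis lies to the right with a median of 1.85, the luminal list lies to the left with a median of -0.62, and the cell cycle lists are narrow around medians of -0.13 and -0.16.

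Cell cycle genes were shifted slightly, and 0 were called higher, against 9.49% of all tested genes. Of 53 tested genes of the G1/S phase, 4 were called lower (7.55%, against 11.7% of all tested genes). Of these 53, 40 had a log2 fold change below 0, with a median of -0.13, against -0.02 over all tested genes. Of 65 tested G2/M genes, 8 were called lower (12.3%, near the share of all tested genes), and 57 were below 0, with a median of -0.16. At an unadjusted limma p under 0.05, 3 genes of the first list and 2 of the second were above 0, and limma-voom called 0 higher in either. *Mki67*, the proliferation marker, had 44.2, 41.4 and 43.3 in Sca-high NT, against 67.1, 67.4 and 58.4 scaled RPKM in Sca-high (-0.58 ± 0.09, adjusted p = 0.000269), and *Brca2* fell by 1.06. The calls of *Mki67*, *Aspm*, *Kif15*, *Pole* and *Dtl* were lost when the trend with gene length was removed. p53 targets were divided, with 7 called higher and 6 lower of 35 tested and a median of 0.03. *Cdkn1a*, which encodes the cell cycle inhibitor p21, had 9.49, 7.88 and 6.93 in Sca-high NT, against 3.72, 2.51 and 2.18 scaled RPKM in Sca-high (1.52 ± 0.29, adjusted p = 0.00121), a call lost when libraries 3 and 8 were left out together. *Plk3* (14, 13.3 and 12.2 in Sca-high NT, against 2.96, 2.6 and 1.92 scaled RPKM in Sca-high, 2.38 ± 0.15, adjusted p = 3.03e-07) and *Pmaip1* (22.8, 19.8 and 20.6 in Sca-high NT, against 7.77, 6.93 and 6.16 scaled RPKM in Sca-high, 1.59 ± 0.12, adjusted p = 8.27e-07) rose, *Mdm2* was not called (8.58, 8.4 and 8.39 in Sca-high NT, against 8.13, 8.21 and 7.42 scaled RPKM in Sca-high, 0.09 ± 0.07, adjusted p = 0.257), and *Sulf2* fell (2.59, 3.29 and 2.6 in Sca-high NT, against 12.8, 10.3 and 9.34 scaled RPKM in Sca-high, -1.90 ± 0.14, adjusted p = 1.1e-06). *Myc* was not called (10.6, 11.8 and 9.61 in Sca-high NT, against 20.9, 16.5 and 12.5 scaled RPKM in Sca-high, -0.61 ± 0.19, adjusted p = 0.018), and of 49 tested genes of ribosome biogenesis, commonly induced by MYC, 2 were called higher (4.08%), *Odc1* (211, 158 and 179 in Sca-high NT, against 55.1, 52.8 and 55.6 scaled RPKM in Sca-high) and *Pes1*, and 1 lower (2.04%).

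Stress pathways showed no direction common to all of them. Targets of ATF4, the factor of amino acid shortage, were called higher in 8 and lower in 8 of 38 tested. Each is a share of 21.1%, against 9.49% and 11.7% of all tested genes. *Slc7a11*, the cystine transporter, had 9.22, 8.92 and 9.06 in Sca-high NT, against 2.49, 2.61 and 2.22 scaled RPKM in Sca-high (1.86 ± 0.11, adjusted p = 1.62e-07) and *Cth*, which makes cysteine, rose by 1.30. *Ddit3*, CHOP, had 7.48, 7.86 and 7.61 in Sca-high NT, against 17.2, 14.8 and 18.8 scaled RPKM in Sca-high (-1.13 ± 0.09, adjusted p = 1.63e-06) and *Slc1a4*, a transporter of neutral amino acids, had 2.1, 2.43 and 2.25 in Sca-high NT, against 6.82, 7.79 and 8.03 scaled RPKM in Sca-high (-1.70 ± 0.09, adjusted p = 6.17e-08). Chaperones of the endoplasmic reticulum were called higher in 5 of 24 (20.8%) and lower in 1 (4.17%), with a median of 0.24. *Hspa5* had 263, 233 and 259.9 in Sca-high NT, against 174, 169.8 and 188 scaled RPKM in Sca-high (0.51 ± 0.07, adjusted p = 0.000177). Its call was lost with median of ratios scaling, with the gene length trend removed and without library 1, 2, 7 or 9. *Xbp1* had 43.9, 40.9 and 43.7 in Sca-high NT, against 23.1, 25.9 and 25.9 scaled RPKM in Sca-high (0.78 ± 0.08, adjusted p = 1.66e-05). Hypoxia and glycolysis genes counted 3 higher and 3 lower of 35 (8.57% each, below both shares of all tested genes). Antioxidant and xenobiotic genes counted 7 higher (24.1%) and 5 lower (17.2%) of 29, with *Gsta1* (2.16 ± 0.17, adjusted p = 1.81e-06) and *Nqo1* (16.4, 10.3 and 14.8 in Sca-high NT, against 5.68, 7.22 and 7.79 scaled RPKM in Sca-high, 0.98 ± 0.18, adjusted p = 0.000919) higher and *Aldh3a1*, an aldehyde dehydrogenase induced by the aryl hydrocarbon receptor, lower (13.4, 9.7 and 11.9 in Sca-high NT, against 35.5, 40.05 and 46.3 scaled RPKM in Sca-high, -1.79 ± 0.16, adjusted p = 4.72e-06). Junction genes counted 2 higher (7.69%) and 6 lower (23.1%) of 26, with the connexin *Gjb2* (3.52) and *F11r* higher (34, 29.97 and 31.6 in Sca-high NT, against 18.3, 19 and 19.3 scaled RPKM in Sca-high, 0.75 ± 0.06, adjusted p = 2.72e-06).

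The 12 largest falls lay both in the lists and outside them. *Krt15* (-3.48) and *Myl9* (-3.19), of the basal lists, and *Wnt7b* (-2.84), of the Wnt list, were given above and are among them. *Gprin3* had 0.333, 0.672 and 0.479 in Sca-high NT, against 10.2, 11.5 and 8.95 scaled RPKM in Sca-high (-4.15 ± 0.18, adjusted p = 1.37e-08), the largest fall by the rule for named genes. *Samd5* had 0.63, 0.802 and 0.824 in Sca-high NT, against 9.07, 10.3 and 8.72 scaled RPKM in Sca-high (-3.48 ± 0.10, adjusted p = 2.28e-09). *Mgll*, the lipase that cleaves monoglycerides and the endocannabinoid 2-arachidonoylglycerol, had 1.29, 1.62 and 1.52 in Sca-high NT, against 13.8, 15.1 and 15.3 scaled RPKM in Sca-high (-3.24 ± 0.11, adjusted p = 5.38e-09). *Cd200*, a membrane protein that restrains myeloid cells, had 5.29, 8.61 and 7.09 in Sca-high NT, against 35.4, 33.8 and 31.4 scaled RPKM in Sca-high (-2.27 ± 0.13, adjusted p = 1.62e-07). *Kif26b*, a kinesin, had 0.694, 1.03 and 0.747 in Sca-high NT, against 6.37, 5.9 and 3.93 scaled RPKM in Sca-high (-2.56 ± 0.19, adjusted p = 9.18e-07), with library 3 the lowest of Sca-high. *Ephb6*, a kinase-dead ephrin receptor, had 1.02, 1.47 and 1.27 in Sca-high NT, against 6.17, 5.99 and 6.28 scaled RPKM in Sca-high (-2.22 ± 0.11, adjusted p = 3.3e-08), and *Prss23*, *Lurap1l* and *Bhlhe41* fell by 2.15, 2.25 and 2.17 on the log2 scale.

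Of the leukocyte genes, *Cd14* and *Cd68* were tested and called higher. *Cd14*, a co-receptor for bacterial lipopolysaccharide that epithelial cells can make as well as macrophages, had 5.95, 6.13 and 6.08 in Sca-high NT, against 1.23, 1.03 and 1.31 scaled RPKM in Sca-high (2.26 ± 0.09, adjusted p = 1.09e-08). *Cd68* had 1.63, 1.67 and 1.52 in Sca-high NT, against 1.15, 0.895 and 1.16 scaled RPKM in Sca-high, with a call lost at a pseudocount of 1, with the gene length trend removed and without library 2, 7, 8 or 9. The other 18 leukocyte genes of that list lay below the filter, with means of at most 0.0296 scaled RPKM in Sca-high NT and 0.0485 scaled RPKM in Sca-high. *Tubb3*, a tubulin known from neurons and from many epithelial lines, had 36.7, 29.9 and 32.8 in Sca-high NT, against 8.26, 8.73 and 9.7 scaled RPKM in Sca-high (1.88 ± 0.16, adjusted p = 2.31e-06).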

How the data were processed

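The authors sorted CommaDβ cells by Sca-1, extracted total RNA with the miRNeasy kit and made Illumina TruSeq libraries. The submitters' processing notes list TopHat2 2.0.6, the mm9 build and DESeq2. For the read counter, the annotation, strand and the handling of reads that fit several genes, the methods are not given in the sources used. What the authors deposited for each gene and library is an RPKM value, in a table described as raw reads. Columns with the authors' own comparisons of other groups (fold changes and p-values) were not used. All 12 columns of per-library values were used, and 182 rows without a symbol were left out.

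RPKM were scaled by a trimmed mean of M values (30% of M and 5% of A values trimmed from each tail). Testing took genes that reached 1 RPKM in 3 or more of 12 libraries and was done with limma 3.58.1 in R 4.3.3 on log2(scaled RPKM + 0.1), with 4 group means, a trend of the spread, 8 residual and 3.09 prior degrees of freedom and Benjamini-Hochberg adjustment over all tested genes. The design had named a count test for counts, but the values are RPKM. Whole reads, recovered from the RPKM steps in 18901 of 18912 genes with a value above 0 (99.9202% of 196761 values within 0.1 read of a whole number), gave the depth and an alternative fit. No pair of libraries in a group agreed within sampling noise, with a chi-square per gene of 8.74 to 79.3. The scripts were tested on simulated data.

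Named genes were 5 markers (*Il1a*, *Cxcl1*, *Sqle*, *Lss*, *Krt17*), the 12 called genes that rose most and the 12 that fell most where the higher group averaged 5 scaled RPKM or more and libraries did not overlap (without predicted genes and pseudogenes of ribosomal proteins), up to 3 called risers and 3 fallers with the smallest p of each of 39 gene lists, the checks *Mir34a*, *Ly6a*, *Cdkn1a* and *Trp63*, and list members that complete an account. A few of these are not reported here. The members and lists were chosen with earlier results of these data known. Of 1074 listed genes in the table, 807 were tested. Promoters and microRNAs are from RefSeq tables on GRCm38.p6 and 3′ UTRs from GENCODE vM21, another build than the authors'.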

Additional observations from a re-analysis of the deposited data

How the results depend on the processing

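Of the named genes and list members, none reversed under any alternative run for them. Calls lower fell to 717 when 1 RPKM was required in each of the 6 libraries (9285 genes tested) and to 736 with a pseudocount of 1, against 1236. With a log2 fold change beyond 1, calls numbered 766, of which 376 were higher and 390 lower, and 180 list members were called, against 308. Leaving out 1 library at a time gave 1970 to 2679 calls, 924 to 1100 of them higher and 1035 to 1579 lower, and 290 to 334 list members, and the most calls came without library 3. With libraries 3 and 8 both left out, an alternative chosen after seeing the data, 2598 genes were called. Calls without a filter numbered 3025 of 18850, with limma-voom on recovered reads 2328, and with the gene length trend removed 2263, of which 1904 were shared. The share of calls that were higher was 44.8%, against 52.5% with 1 RPKM in each of the 6 libraries, 51.7% with a pseudocount of 1 and 39.8% with median of ratios scaling. Of list members and named genes, a pseudocount of 1 lost 53 calls and added 2, and removing the length trend lost 26 and added 30. The cause of these shifts was not tested. No paired analysis was possible because the columns carry a group and a running number, not a replicate number. Depth limits *Mir34a*, with 0 to 8 reads in each of the 6 libraries.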

Other observations

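The levels of some genes with large changes, chosen after their values were seen, are given here in all 4 groups as means with SD over 3 libraries, in scaled RPKM and with no comparison between groups that share libraries. *Il1a*, the alarmin, averaged 564 ± 123 in Sca-high NT, 142 ± 25.8 in Sca-high 34a, 25.1 ± 9.39 in Sca-low and 21.1 ± 6.29 in Sca-high. *Cxcl5*, a CXCR2 ligand, averaged 311 ± 40.4 in Sca-high NT, 104 ± 24.8 in Sca-high 34a, 13.4 ± 3.47 in Sca-low and 17.6 ± 1.24 in Sca-high. *Csf3*, G-CSF, averaged 12.8 ± 3.69 in Sca-high NT, 0.591 ± 0.112 in Sca-high 34a, 2.45 ± 0.257 in Sca-low and 0.594 ± 0.111 in Sca-high. The stromelysin *Mmp10* averaged 104 ± 23.3 in Sca-high NT, 2.4 ± 0.424 in Sca-high 34a, 5.03 ± 2 in Sca-low and 5.32 ± 1.09 in Sca-high. *Prl8a9*, the prolactin-like gene, averaged 99.3 ± 17.1 in Sca-high NT, 0.826 ± 0.0348 in Sca-high 34a, 4.14 ± 1.59 in Sca-low and 3.75 ± 0.678 in Sca-high. In the sterol pathway, *Fdps* averaged 239.7 ± 14.3 in Sca-high NT, 178 ± 38 in Sca-high 34a, 62.2 ± 8.68 in Sca-low and 27.7 ± 0.837 in Sca-high. *Insig1*, the sterol-sensing regulator, averaged 31.8 ± 3.7 in Sca-high NT, 25.4 ± 3.39 in Sca-high 34a, 11.6 ± 0.497 in Sca-low and 3.79 ± 0.0423 in Sca-high. Of the genes that fell, *Gprin3* averaged 0.495 ± 0.17 in Sca-high NT, 0.802 ± 0.0717 in Sca-high 34a, 1.21 ± 0.112 in Sca-low and 10.2 ± 1.28 in Sca-high. *Mgll*, the monoglyceride lipase, averaged 1.48 ± 0.17 in Sca-high NT, 1.33 ± 0.196 in Sca-high 34a, 0.413 ± 0.0333 in Sca-low and 14.7 ± 0.836 in Sca-high. The Wnt ligand *Wnt7b* averaged 1.34 ± 0.241 in Sca-high NT, 5.25 ± 0.171 in Sca-high 34a, 34.7 ± 1.74 in Sca-low and 10.1 ± 0.117 in Sca-high.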
